A study of Mus musculus with 9 samples.

Results

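The nuclear genes for the subunits of the mitochondrial oxidative phosphorylation complexes were compared between 3 groups of mouse blood stem and progenitor cells, and Ndufa4 was the 1 gene among them that passed the test. They were taken as every named gene whose symbol begins with Ndufa, Ndufb, Ndufc, Ndufs, Ndufv, Uqcr, Cox4i, Cox5, Cox6, Cox7, Cox8 or Atp5, together with Sdha, Sdhb, Sdhc and Sdhd, and without the Ndufaf assembly factors. This gave 85 of the 24060 named genes of the count table: 38 of complex I, 4 of complex II, 8 of complex III, 18 of complex IV and 17 of complex V. RNA sequencing had been run on LSK cells, the lineage-low, Sca1-positive and Kit-positive fraction of bone marrow that holds stem cells and early progenitors. The groups, of C57BL/6 strain and all labelled as 4 months of age, were 3 control libraries, 2 NHD13 libraries and 4 libraries labelled NHD13/MSI2. NHD13 is a NUP98-HOXD13 fusion transgene under the Vav promoter, which is active in blood cells, and models myelodysplastic syndrome. In the third group it was joined by a doxycycline-inducible MSI2 transgene at the Col1a1 locus, switched by an rtTA expressed from the ROSA26 locus. Marrow of all groups had been transplanted into lethally irradiated CD45.1 recipients, which were then given doxycycline for 3 months before donor-derived CD45.2 cells were sorted.

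In oxidative phosphorylation, complexes I and II pass electrons from NADH and succinate to ubiquinone, complex III hands them to cytochrome c, and complex IV gives them to oxygen. Complexes I, III and IV pump protons across the inner mitochondrial membrane, and complex V, the ATP synthase, uses the return flow to make ATP. Blood stem cells are known for low use of this pathway at rest and for a greater use of it when they divide and differentiate.

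The libraries held 19242153 to 23013493 counts in named genes, and 3 counts, used here as the floor of detection, were 0.12 to 0.195 CPM after scaling, the counts of a gene in a library scaled to 1000000 counts in tested genes. Of the 85 genes, 80 passed a filter on low counts that left 13355 genes to test. The other 5 were Cox7b2, Cox8b and Cox8c, with 0 counts in every library (at most 0.195 CPM by the floor), Ndufa4l2, with 1 count in 1 library, and Cox7a1, which ranged from 0.103 to 0.593 CPM. None of 26 names of subunits and RNAs encoded by mitochondrial DNA stood in the table, so the results are about the nuclear share of the complexes. Msi2 itself went against the group label: it was at 223, 316 and 266 CPM in controls, 139 and 111 CPM in NHD13, and 88, 77.1, 82.8 and 241 CPM in the libraries labelled NHD13/MSI2, and whether transcripts of the transgene are counted under that name was not given in the sources used here. Control replicates 1 and 3 had 888 and 866 CPM of Xist, the RNA of the silenced X chromosome in females, and no other library exceeded 2.33 CPM, so sex and group cannot be told apart in full. NHD13/MSI2 replicate 4 stood apart from replicates 1 to 3 across all genes. The summed CPM of 10 LSK markers was 5533 to 6490 in controls, 2958 to 4033 in NHD13 and 2416 to 3117 in the libraries labelled NHD13/MSI2, although Ly6a, the gene of Sca1, had a mean of 259.9 CPM in the third group and 85.82 CPM in controls, a difference that did not pass the test. In sorted bulk cells a change in cell make-up and a change in RNA per cell cannot be told apart.

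At an unadjusted p of 0.05 the share of subunit genes was below the share of all genes in each of the 3 comparisons. At an adjusted p of 0.01 the shares of all genes were small where 0 of 80 passed, so those counts say little. In the libraries labelled NHD13/MSI2 against NHD13, 0 of 80 genes passed an adjusted p of 0.01 (quasi-likelihood test of edgeR, adjusted after Benjamini and Hochberg over all genes), beside 3.17% of all genes tested, and at an unadjusted p of 0.05 the counts were 2 of 80 and 21.7%. Against control, the same libraries gave 1 gene of 80, Ndufa4, which was lower, beside 11% of all genes called in either direction and 6.55% called lower. At the unadjusted p of 0.05, 4 of 80 subunit genes stood beside 32.8% of all genes. NHD13 against control gave 0 of 80 by the same edgeR test, beside 1.03% of all genes, and 2 of 80 beside 13.5% at the unadjusted threshold. The joint test of the 3 groups called 1 of 80, again Ndufa4, beside 8.9% of all genes.

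The range between quartiles of the fold changes was narrower too. Between its quartiles, the set of 80 log2 fold changes ran from -0.19 to 0.04 for the libraries labelled NHD13/MSI2 over NHD13, against -0.43 to 0.30 for all genes. For the same libraries over control it ran from -0.13 to 0.13, against -0.46 to 0.36, and for NHD13 over control from -0.01 to 0.14, against -0.25 to 0.29. The medians over the 80 genes were -0.07, -0.01 and 0.06 in that order, beside -0.03, -0.01 and 0.02 over all genes. The first median changed sign, to 0.05 without NHD13/MSI2 replicate 4 and to 0.08 without NHD13 replicate 2. All moves on leaving out any one library were under 0.216 log2, the SD between replicates of the median subunit level. That SD is widened by NHD13/MSI2 replicate 4 and is larger than each median, so it is a loose limit and does not show that the medians are stable. Comparisons share groups, so their values are not independent of each other.

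**Figure D1:**
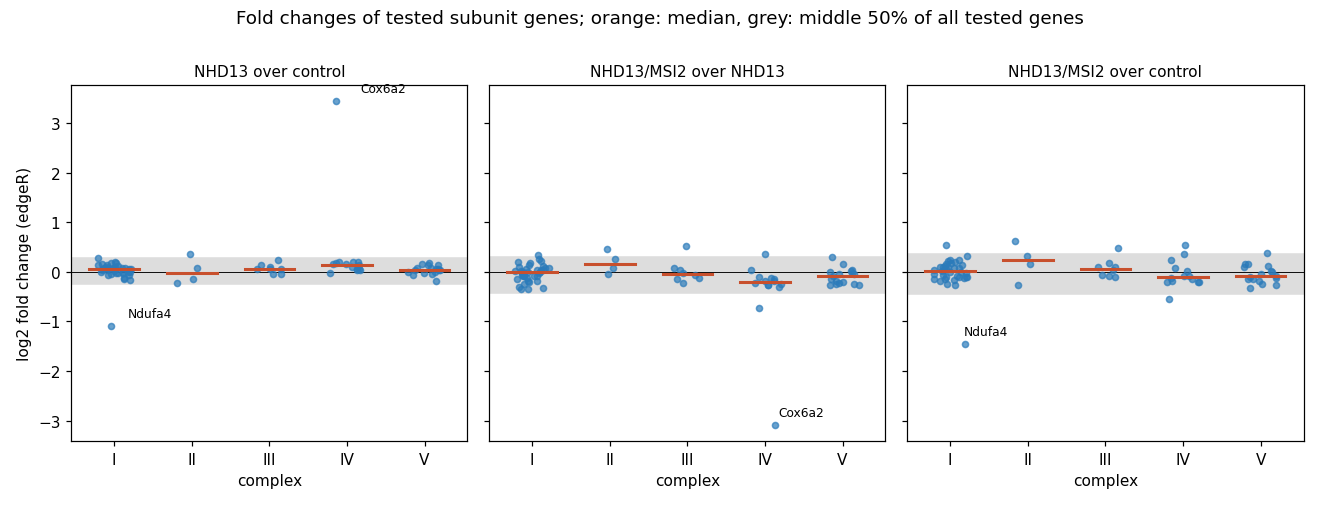
Each point is the log2 fold change of 1 tested subunit gene (vertical axis) in complex I to V (horizontal axis), for the 3 comparisons; orange lines are medians and the grey band is the range between the quartiles of all 13355 genes tested. Most points lie inside the grey band, Ndufa4 falls to -1.10 in NHD13 and -1.45 in NHD13/MSI2 over control, and Cox6a2 rests on 1 NHD13 library.

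Between the complexes the medians differed by small amounts. For the libraries labelled NHD13/MSI2 over control, the median log2 fold change was 0.02 for complex I, 0.24 for complex II, 0.07 for complex III, -0.10 for complex IV and -0.08 for complex V. For the same libraries over NHD13 they were -0.01, 0.17, -0.05, -0.205 and -0.08, and for NHD13 over control 0.06, -0.03, 0.06, 0.15 and 0.05 in the same order. Without NHD13/MSI2 replicate 4 the medians over control were 0.10, 0.21, 0.20, 0.12 and 0.06, and those over NHD13 were 0.05, 0.22, 0.10, 0.02 and 0.06. The negative values of complexes IV and V thus turned positive without that library, as did those of complexes I and III over NHD13. Over NHD13 the median of all 80 genes also changed sign without NHD13 replicate 2, so its sign did not rest on replicate 4 alone. Members whose groups did not overlap were few: against control, 3 of 80 were higher in every library labelled NHD13/MSI2 (Cox7a2l, Ndufa1 and Sdhb, beside 15.3% of all genes) and 2 were lower (Atp5s and Ndufa4, beside 20.4%). For NHD13 and control, 5 of 80 were higher (Cox6a2, Cox7a2l, Ndufa6, Sdhb and Uqcrh, beside 18.9%) and 3 lower (Atp5s, Ndufa4 and Sdhc, beside 18.5%).

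**Figure D2:**
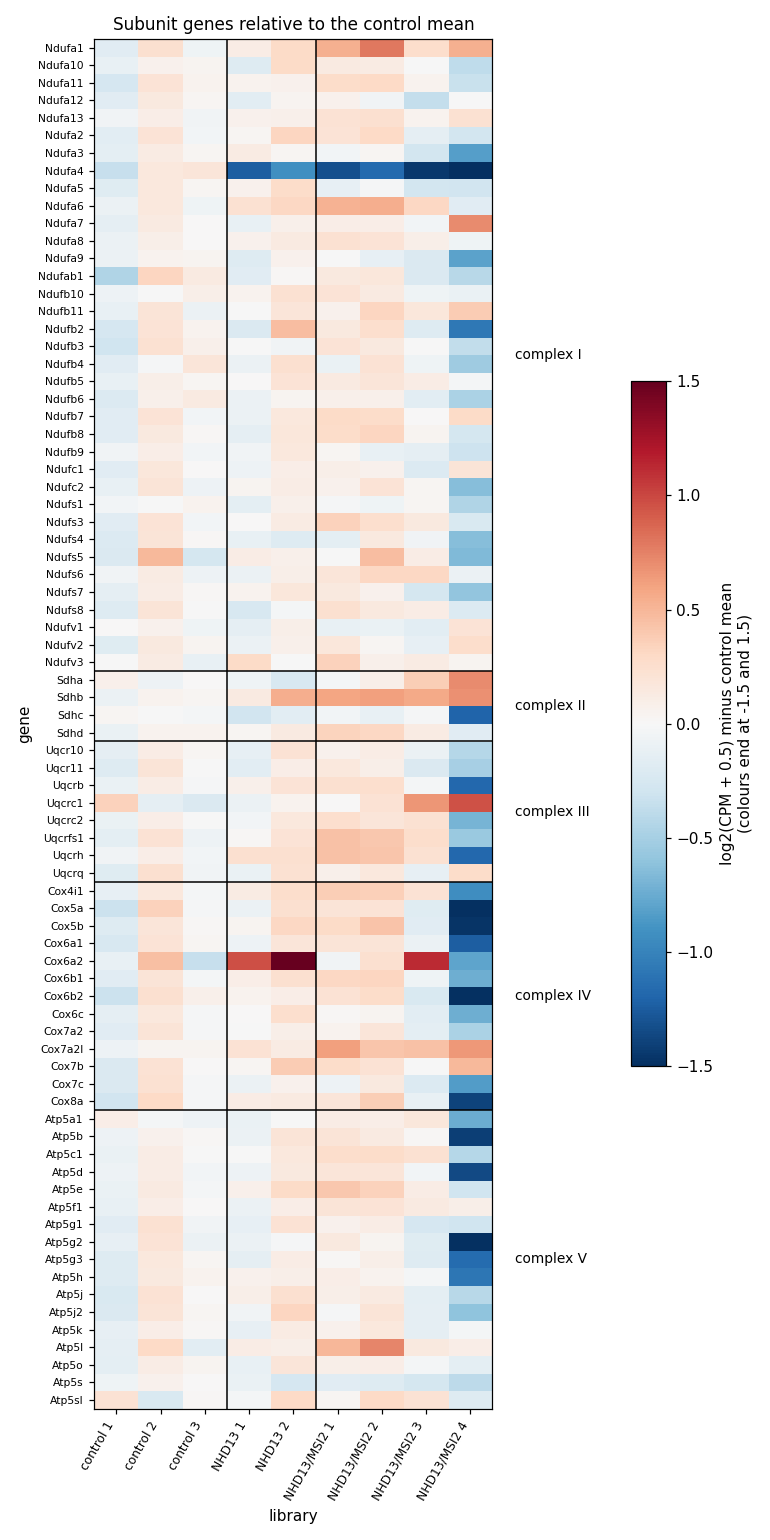
Colours give log2(CPM + 0.5) minus the control mean for 78 of the 79 subunit genes with a mean of at least 50 counts, since 1 is not reported here (vertical axis, by complex) in the 9 libraries (horizontal axis). Ndufa4 is blue in all 6 libraries with the NHD13 transgene, Sdhb and Cox7a2l are red in the 4 NHD13/MSI2 libraries, and most of the other dark blue cells are in NHD13/MSI2 replicate 4.

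Ndufa4 (ENSMUSG00000029632.7) was the subunit gene that passed the test, with a fall in the libraries labelled NHD13/MSI2 against control. Its protein was first assigned to complex I and is now placed with complex IV. The gene is counted here in complex I by its symbol, and it lies on mouse chromosome 6 (GRCm38, 11900292 to 11907497). Controls held 224, 316 and 323 CPM, NHD13 held 120.2 and 149 CPM, and the libraries labelled NHD13/MSI2 held 113, 126, 103 and 78.9 CPM. All 6 libraries with the transgene were thus below the lowest control. Against control the fall was 2.73-fold in the libraries labelled NHD13/MSI2 (log2 fold change -1.45, SE 0.20, edgeR adjusted p = 0.00111). In NHD13 the level was 2.14-fold under control and missed the threshold by edgeR (log2 fold change -1.10, SE 0.25, adjusted p = 0.0512), while DESeq2 gave an adjusted p of 0.000884, the lowest of 19 alternatives that reached up to 0.878, in the one where the name stood on another gene's row. The 2 transgenic groups differed by -0.35 (SE 0.22, edgeR adjusted p = 0.414), so no difference between them was shown. The joint edgeR test gave an adjusted p of 0.00268 and lost its call when control replicate 2 or control replicate 3 was left out. The control without Xist, replicate 2, was at 316 CPM, between the values of the pair with Xist, and the summed LSK marker level was lower in all 6 libraries with the transgene, with 6 of the 10 markers called lower in the third group and 1, Cd34, in NHD13. Of the 10 markers, 2 had a positive log2 fold change over control in the third group, Ly6a (1.60) and Cd48 (0.24). In NHD13 3 did, Cd48 (0.42), Slamf1 (0.76) and Gata2 (0.31), and none of these values passed the test. Cd48 had means of 191.8 CPM in controls, 255.8 CPM in NHD13 and 226.2 CPM in the third group. The part of cell make-up in the fall was not tested.

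**Figure D3:**
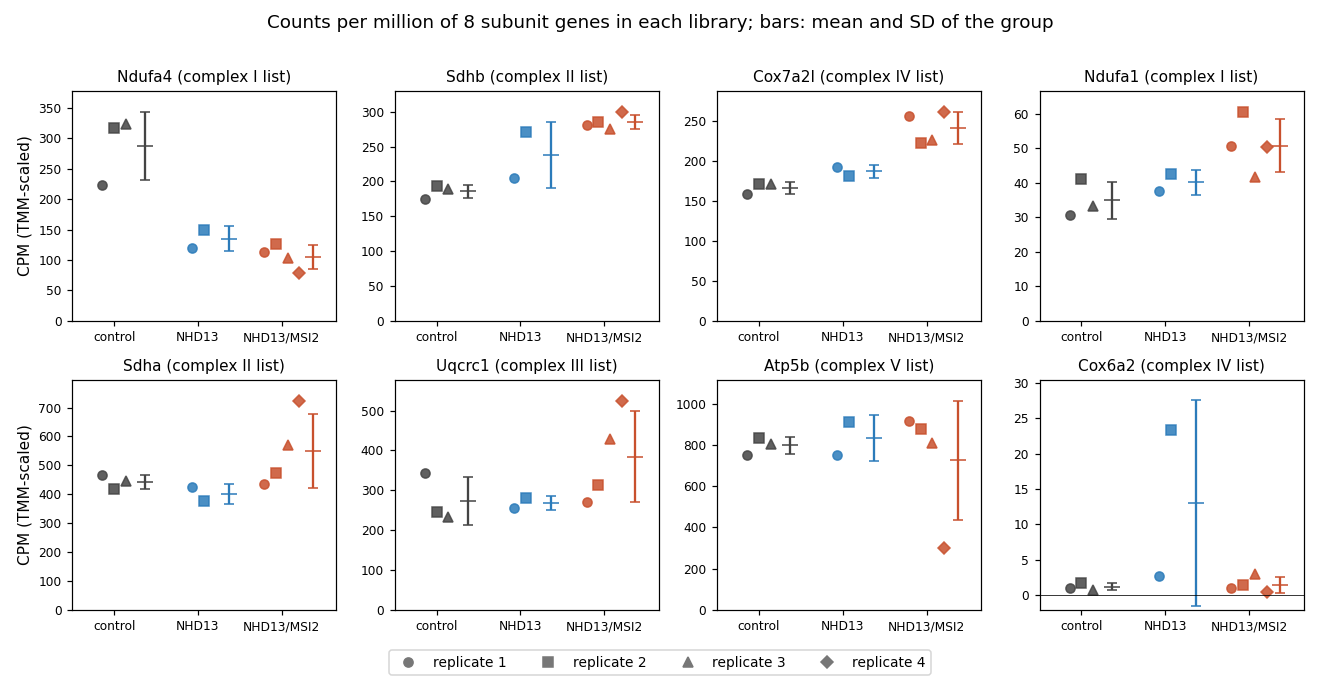
Each panel gives TMM-scaled CPM (vertical axis) of 1 gene in each library of the 3 groups (horizontal axis), with the mean and SD of the group to the right of its points; with 2 libraries the NHD13 bar reflects a pair. Ndufa4 lies between 78.9 and 149 CPM in the 6 transgenic libraries and from 224 CPM upwards in controls, Sdhb and Cox7a2l are highest in NHD13/MSI2, and the high Cox6a2 value is 1 library.

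The neighbours of Ndufa4 were read alongside it, since they share its stretch of chromosome. Within 1 Mb on each side, 2 other genes were tested, Phf14 and Thsd7a, and neither passed the test in any comparison. Phf14, which starts next to Ndufa4, had a log2 fold change of -0.21 (adjusted p = 0.74, edgeR) in the libraries labelled NHD13/MSI2 over control.

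The stretch before the start of Ndufa4 is shown with those of Sdhb and of 3 abundant subunit genes that hold a classical motif of respiratory genes, so that Ndufa4 can be read against others of its pathway. The search covered both strands, in the 250 bases before and 50 bases after each RefSeq start, for GCGCANGCGC for NRF1, CCGGAA for the ETS family that includes GABPA, and AAGATGG for YY1, the first 2 factors being known regulators of these genes. Promoters were found for 68 of the 85 genes, 74 in all. NRF1's motif stood in 18 of the 74 (24.3%), beside 4.6% of 32851 promoters of all genes. The ETS motif stood in 36.5% beside 14.9%, and the YY1 motif in 16.2% beside 6.34%. By complex, NRF1's motif was in 22.9% of the 35 promoters of complex I and 33.3% of the 18 of complex V, but in 1 of 13 of complex IV. None of the 3 motifs matched in the window of Ndufa4, and the window of Sdhb held the ETS motif only, after the start and outside the bases printed. The 250 bases before the start are given 5′ to 3′ on the gene's strand, from RefSeq's GRCm38.p6, at chr6:11907451-11907700 (minus) for Ndufa4, chr4:140961021-140961270 (plus) for Sdhb, chr9:50603850-50604099 (minus) for Sdhd, chr5:115348959-115349208 (minus) for Cox6a1 and chr2:10080433-10080682 (minus) for 1 of 2 starts of Atp5c1, with NRF1 and ETS matches in capitals:
Ndufa4: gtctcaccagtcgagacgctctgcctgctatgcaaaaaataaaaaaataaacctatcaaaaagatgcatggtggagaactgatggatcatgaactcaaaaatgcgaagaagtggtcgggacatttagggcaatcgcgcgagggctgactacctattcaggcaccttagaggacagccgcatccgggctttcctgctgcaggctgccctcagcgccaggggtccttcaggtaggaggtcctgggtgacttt
Sdhb: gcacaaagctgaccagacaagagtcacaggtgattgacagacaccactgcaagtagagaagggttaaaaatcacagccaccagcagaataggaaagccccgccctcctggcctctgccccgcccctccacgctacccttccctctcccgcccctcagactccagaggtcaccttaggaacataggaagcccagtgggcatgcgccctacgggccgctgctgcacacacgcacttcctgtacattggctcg
Sdhd: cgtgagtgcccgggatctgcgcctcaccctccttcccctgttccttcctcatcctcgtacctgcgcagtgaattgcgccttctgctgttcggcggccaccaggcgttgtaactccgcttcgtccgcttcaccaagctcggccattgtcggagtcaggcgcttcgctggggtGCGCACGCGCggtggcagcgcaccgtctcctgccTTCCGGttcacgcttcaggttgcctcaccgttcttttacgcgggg
Cox6a1: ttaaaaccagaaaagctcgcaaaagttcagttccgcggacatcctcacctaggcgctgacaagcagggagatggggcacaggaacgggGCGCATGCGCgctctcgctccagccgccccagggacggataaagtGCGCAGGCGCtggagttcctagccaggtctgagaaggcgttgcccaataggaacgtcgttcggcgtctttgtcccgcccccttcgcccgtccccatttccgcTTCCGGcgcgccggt
Atp5c1: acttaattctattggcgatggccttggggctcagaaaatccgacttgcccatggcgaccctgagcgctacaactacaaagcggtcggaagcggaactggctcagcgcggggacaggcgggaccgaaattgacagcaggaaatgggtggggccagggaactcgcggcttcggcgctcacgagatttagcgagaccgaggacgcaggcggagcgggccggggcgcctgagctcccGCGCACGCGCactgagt
These matches are letters in a window, and they say nothing about binding in these cells.

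Complex I, which takes electrons from NADH, gave no other call. For the third group over control, log2 fold changes of its 7 nuclear core subunits ran from -0.14 to 0.14 with a median of 0.02, and the median of its 30 accessory subunits tested was 0.02. Ndufv1, which carries the NADH site, was at 150, 156 and 144 CPM in controls, 137 and 160 CPM in NHD13 and 138, 140, 134 and 172 CPM in the libraries labelled NHD13/MSI2. These groups overlapped, as did those of Ndufs1, the largest core subunit, at 186 to 199 CPM in controls, 173 to 203 CPM in NHD13 and 141 to 196 CPM in the third group.

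Among accessory subunits, Ndufa1, a small X-linked subunit needed for assembly, had the highest fold change. It was at 30.8, 41 and 33.1 CPM in controls, 37.6 and 42.5 CPM in NHD13 and 50.5, 60.4, 41.6 and 50.2 CPM in the libraries labelled NHD13/MSI2. The third group lay just above the controls, with 41.6 CPM next to 41 CPM, and its log2 fold change of 0.54 (SE 0.17) missed the threshold by edgeR (adjusted p = 0.0529). Of the other X-linked members, Ndufb11 had a log2 fold change of 0.23 (SE 0.14) and Cox7b, of complex IV, one of 0.25 (SE 0.17) in the same comparison, and neither passed the test. Xist marked 2 of the 3 control libraries as female, and the part of sex in these values was not tested.

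With TMM scaling, the summed level of complex II, succinate dehydrogenase, was higher in every library labelled NHD13/MSI2 than in the other 5. Its 4 genes together gave 1004, 997 and 1019 CPM in controls, 988 and 1035 CPM in NHD13, and 1154, 1184, 1242 and 1297 CPM in the libraries labelled NHD13/MSI2. Without TMM scaling, which raises replicate 4, that library's sum was 1018 CPM, the lowest of the 9, where controls held 1059 to 1108 CPM and replicates 1 to 3 of its group 1118 to 1206 CPM, and the log2 ratio of group means over control went from 0.28 to 0.06. Leaving out TMM lowered the median of all genes by 0.20 in the same comparison. Sdhb, the iron-sulphur subunit, was at 175, 193 and 189 CPM in controls, 205 and 272 CPM in NHD13 and 281, 286, 275 and 299.6 CPM in the third group. Its groups did not overlap, yet the 1.54-fold difference between the third group and controls missed the threshold (log2 fold change 0.62, SE 0.14, edgeR adjusted p = 0.0116). DESeq2 gave Sdhb an adjusted p of 0.000138 (NHD13/MSI2 over control), and edgeR one of 0.0053 without replicate 4 of the third group, within a range up to 0.85 over 19 alternatives, reached where the name stood on another gene's row.

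The other subunits of complex II did not pass the test. Sdha, the flavoprotein that oxidises succinate, was at 465, 418 and 445 CPM in controls, 425 and 376 CPM in NHD13 and 435, 472, 569.7 and 722 CPM in the libraries labelled NHD13/MSI2. Replicates 3 and 4 of that group were above all other libraries, and the log2 fold change over NHD13 of 0.46 (SE 0.22) did not pass (edgeR adjusted p = 0.262). Sdhc, a membrane anchor, lay between 124 and 131 CPM in replicates 1 to 3 and between 131 and 137 CPM in controls, but at 57.4 CPM in replicate 4. Sdhd, the other anchor, was at 309, 303, 266 and 218 CPM in the third group, beside 228 to 254 CPM in controls.

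Complex III, which oxidises ubiquinol, had no member past the test in any comparison. Uqcrc1, a core protein of the complex, had its highest fold change, with 343, 247 and 232 CPM in controls, 255 and 281 CPM in NHD13 and 271, 314, 428 and 524 CPM in the libraries labelled NHD13/MSI2. Only replicates 3 and 4 of the last group were above every control, and the log2 fold change of 0.49 (SE 0.25) over control had an edgeR adjusted p of 0.205. Uqcrfs1, the Rieske iron-sulphur protein, was at 178, 174 and 158 CPM in replicates 1 to 3 and at 88.8 CPM in replicate 4, beside 119 to 153 CPM in controls. Uqcrh, the hinge protein, was at 215, 211 and 187 CPM in the same 3 and at 70.2 CPM in replicate 4.

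Among abundant genes counted by symbol in complex IV, cytochrome c oxidase, Cox7a2l differed most in the libraries labelled NHD13/MSI2 over control. Ndufa4, counted in complex I, is not among them. Cox7a2l is known for joining complexes III and IV into supercomplexes. It was at 158, 171 and 171 CPM in controls, 193 and 181 CPM in NHD13, and 256, 222, 227 and 261 CPM in the libraries labelled NHD13/MSI2, so that the 3 groups did not overlap. Over control the third group was 1.45-fold higher, which missed the threshold (log2 fold change 0.53, SE 0.12, edgeR adjusted p = 0.0144). DESeq2 gave 0.000152, and edgeR gave 0.00341 without replicate 4 of NHD13/MSI2, and over 19 alternatives the adjusted p reached at most 0.0662.

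Complex IV also has isoforms used in particular tissues, and these cells held mostly the general ones. Per kilobase of exon, the mean control level of Cox4i1 was 458 CPM and that of Cox4i2, its partner known from lung, 2.75 CPM. Cox6b1 was at 171 CPM and Cox6b2, known from testis, at 22.4 CPM on that scale. Cox8b and Cox8c had no counts, while Cox8a was at 180 CPM per kilobase. Cox6a2, the heart and skeletal muscle form, was at 1.02, 1.76 and 0.80 CPM in controls, 2.71 and 23.3 CPM in NHD13 and 1.09, 1.45, 3.08 and 0.454 CPM in the libraries labelled NHD13/MSI2. NHD13 replicate 2 alone was far above the rest, and in it Cox6a1, the general partner, had 138 CPM, inside the 103 to 141 CPM of controls. The log2 fold change of NHD13 over control was 3.45 (SE 0.93, edgeR adjusted p = 0.0993) and 1.18 without that library, and DESeq2 gave an adjusted p of 0.00513, against at most 0.868 over 19 alternatives. Of 14 muscle genes, a list written after these values were seen, Casq2 was at 34.1 and 585 CPM in NHD13 and at most at 0.195 CPM elsewhere, while 8 of the genes, among them Myh6, Myh7 and Tnnt2, held at most 1 count in any library. The list summed to 3.65 to 6.28 CPM in controls, 45.1 and 605 CPM in NHD13 and 19 to 29.2 CPM in the third group, where Ckm alone gave 16.6, 25.8, 22.5 and 12.6 CPM. The cells had been sorted as donor LSK cells, and the part of muscle cells in the Cox6a2 value was not tested.

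Complex V, the ATP synthase, held no gene past the test. Atp5b, which carries the catalytic sites, was at 754, 836 and 806 CPM in controls, 753 and 911 CPM in NHD13, and 916, 878, 811 and 298.5 CPM in the libraries labelled NHD13/MSI2. Only replicate 4 of the last group lay outside the range of the others. Atp5a1, its partner in the catalytic head, was at 1054 to 1196 CPM in controls, 1042 and 1112 CPM in NHD13, and 1203, 1194, 1253 and 665 CPM in the third group. The 3 genes for the identical c subunit of the rotor, Atp5g1, Atp5g2 and Atp5g3, were at 66.7 to 87.7, 25.2 to 31.9 and 133 to 169 CPM in controls. Per kilobase of exon, the control levels of complex V genes ranged from 13.1 (Atp5sl) to 422 (Atp5o) CPM, with a median of 144. Atp5sl, which the annotation lists as Dmac2, is known as an assembly factor of complex I and is counted here by its symbol alone, and without it the lowest was Atp5g1 at 15.4 CPM per kilobase. The medians were 83.2 for complex I, 158 for complex II, 153 for complex III and 105 for complex IV on the same per-length scale.

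NHD13/MSI2 replicate 4 held less RNA for most subunit genes than the other libraries of its group, and unequally by complex. Against the mean of replicates 1 to 3, on the log2(CPM + 0.5) scale and over the 79 subunit genes with a mean of at least 50 counts, its median was -0.48, beside -0.01 over all genes. Of the 79 genes 65 were lower, and 17 (21.5%) were lower by more than 1 log2, beside 10.5% of all genes. The median was -0.43 for complex I, -0.17 for complex II, -0.71 for complex III, -1.22 for complex IV and -0.59 for complex V. Complex IV was thus 2.33-fold lower at its median, and all 17 genes of complex V were lower. The lowest values were those of Atp5g2 at -2.19, Cox6b2 at -1.79 and Cox5b at -1.66. Some members went the other way, with Ndufa7 and Uqcrc1 at 0.66 and Sdha at 0.56.

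**Figure D4:**
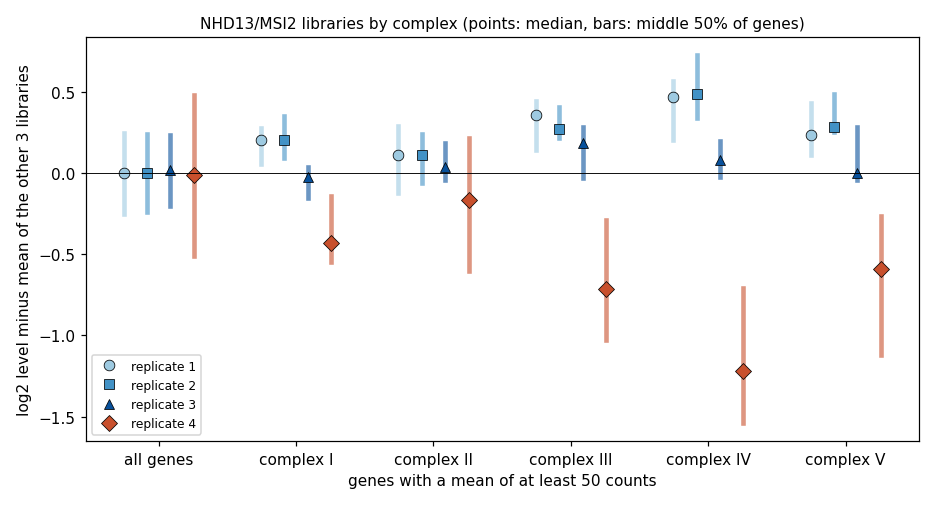
For each NHD13/MSI2 library the point is the median and the bar the range between quartiles, over genes, of the log2 level minus the mean of the other 3 libraries (vertical axis), for all genes and each complex (horizontal axis). Replicate 4 is near 0 over all genes, at -1.22 in complex IV and at -0.17 in complex II. Replicates 1 and 2 are above 0 in each complex, but the mean they are set against includes replicate 4, which raises their values where it is low.

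Other features of that library moved with these values. Genes of the cytosolic ribosome had a median of -1.46 (93 genes) in it, those of the mitochondrial ribosome -0.32 (77 genes) and those of the proteasome -0.38 (49 genes). Short transcripts were lower as well: the 2181 genes with the least exon length, 109 to 1877 bases, had a median of -0.34, and the 66 subunit genes among them one of -0.50. In the next 3 classes of exon length all genes had medians of -0.13, -0.01 and 0.12, whereas the 6, 4 and 3 subunit genes in them had -0.47, -0.65 and -0.44. Across genes, Spearman's rho of the deviation with exon length was 0.30 for all 10903 genes and 0.14 for the 79 subunit genes, values that share 1 library and are given as a description. The part of RNA quality in the pattern was not tested.

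Pathway partners of the complexes gave few calls. No gene passed the edgeR test in any comparison among 13 assembly factors of complex I, 26 of complexes II to V, 13 electron carriers and exchangers and 17 genes of the tricarboxylic acid cycle. Of all genes, 3.17% passed for NHD13/MSI2 over NHD13, 11% for NHD13/MSI2 over control and 1.03% for NHD13 over control. The lists are short, so a count of 0 in any of them says little. Cycs, the mobile carrier cytochrome c, was at 54.2 to 70.9 CPM in controls, 57.4 and 85 CPM in NHD13 and 57.4 to 74.2 CPM in the libraries labelled NHD13/MSI2. Of 16 regulators of mitochondrial biogenesis 1 was called, Ppargc1a, a coactivator of respiratory genes, which was lower against control, where 6.55% of all genes were. It was at 5.40, 6.64 and 6.04 CPM in controls, 2.30 and 1.28 CPM in NHD13 and 0.207, 0.0499, 0.317 and 0 CPM in the libraries labelled NHD13/MSI2, without overlap between the groups (log2 fold change over control -5.27, SE 0.74, edgeR adjusted p = 0.00125), and in the third group it was near the floor of detection. Nrf1 and Tfam, a factor for respiratory genes and one for mitochondrial DNA, did not pass, with log2 fold changes of 0.00 and 0.02 in that comparison.

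Of 10 antioxidant genes 1 passed, Gpx1, a peroxidase that reduces hydrogen peroxide, which was higher against control, where 4.49% of all genes were. It was at 1074, 1366 and 1222 CPM in controls, 1418 and 1838 CPM in NHD13 and 2415, 2656, 2305 and 2655 CPM in the libraries labelled NHD13/MSI2, with no overlap between the groups (log2 fold change over control 1.04, SE 0.17, edgeR adjusted p = 0.00243). Of 77 genes of the mitochondrial ribosome 1 passed, beside the same 6.55% of all genes called lower. It was Mrpl48, which was at 58.7 to 65.3 CPM in controls, 47.1 and 49.7 CPM in NHD13 and 27.7 to 36.1 CPM in the third group (log2 fold change over control -0.98, SE 0.14, edgeR adjusted p = 0.00127).

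Markers of other blood cells differed between the same groups. The summed CPM of 11 neutrophil markers was 2465 to 4501 in controls, 3429 to 4705 in NHD13 and 9080 to 15222 in the libraries labelled NHD13/MSI2. Mpo made up most of that sum, with means of 1549, 3383 and 10791 CPM, and was the 1 neutrophil marker called over control, while the list's median log2 fold change there was -0.39, and Ltf, Camp, Ngp, S100a8 and S100a9 had values of -1.89, -1.69, -1.80, -1.71 and -1.80 that did not pass. Sums of the monocyte and macrophage list were 50.3 to 88.4, 313 to 405 and 648 to 817 CPM, and those of the B cell list 46.3 to 60.1, 83.7 to 129 and 262 to 448 CPM. The erythroid list gave 88.1 to 146, 152 to 163 and 155 to 234 CPM, with its 4 globin genes at 3 counts or fewer in every library. The megakaryocyte list gave 81.4 to 225, 87 to 707 and 16.4 to 46.5 CPM, the T cell list 37.9 to 50.5, 203 to 263 and 56.5 to 94.2 CPM, the endothelial list 222 to 314, 368 to 405 and 442 to 565 CPM and the fibroblast list 4.75 to 6.95, 6.37 to 14.1 and 0.195 to 29.5 CPM. The endothelial sum was mostly Pecam1, which was called higher over control (means 160.1, 320.2 and 495.1 CPM), whereas Emcn and Tie1 were called lower and the median of the 4 markers tested was -4.25 on the log2 scale. The part of these cells in the values of Ndufa4, Sdhb and Cox7a2l was not tested.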

How the data were processed

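The deposited table held raw read counts per gene for the 9 libraries, which the authors made from RNA of sorted LSK cells; the submitters' processing notes name STAR, HTSeq, DESeq and mm9 without versions, and the annotation and the handling of reads that map to several places were not given in the sources used here. Genes with near-identical copies, such as Ndufs5, are therefore uncertain. Gene names after a run of date-like names sat 2 rows too high: with names as deposited Ndufa6 held at most 1 count and Xist 0 in every library. They were moved down by 2 rows, which concerned the 50 genes of complexes I to III, and 13 rows (0.0253% to 0.0323% of a library) stayed without a name. Members and lists were chosen with earlier results of these data known.

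edgeR 4.0.16 in R 4.3.3 was used with filterByExpr by group, TMM factors (0.785 in NHD13/MSI2 replicate 4, 0.969 to 1.09 elsewhere) and a quasi-likelihood model of all 9 libraries, with an adjusted p of 0.01 as threshold, after the study's methods. CPM are scaled by TMM. Replicates were numbered by the labels, which do not say whether they came from separate mice, so p-values measure only the spread between these libraries. Totals limit precision by counting error only. DESeq2 1.42.0 and other settings were alternatives. The scripts were tested on simulated data. Genes named were those past the threshold, tissue isoforms and their partners, the highest and lowest fold change of each complex, X-linked and core members, of which 1 is not reported here; Ndufa7, Cox5b, Atp5sl, Atp5o, the list genes Cycs, Nrf1 and Tfam, Phf14, Thsd7a, Casq2 and the other muscle genes were named after their values were seen. Positions and exon lengths are from GENCODE M21 on GRCm38, which is not the authors' build.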

Additional observations from a re-analysis of the deposited data

Results flagged for a closer look

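In the group of 4 libraries labelled NHD13/MSI2, replicate 4 was farther from its nearest neighbour than Dixon's 95% limit allows in 6 of the values described, a distance that chance gives in about 1 in 20 groups. It was the lowest for the summed level of complex III at 1081 CPM and of complex V at 2462 CPM. Among single genes it was the lowest for Atp5a1 at 665.2 CPM, Atp5b at 298.5 CPM and Sdhc at 57.44 CPM, and the highest for Ndufv1 at 172.4 CPM. Over the 79 subunit genes with a mean of at least 50 counts, this library was a low extreme by that limit in 7 (8.86%) and a high one in 2 (2.53%), beside 2.97% and 10% of all genes.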

How the results depend on the processing

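For the libraries labelled NHD13/MSI2 over control, 1 subunit gene passed by edgeR, 3 at an adjusted p of 0.05, 3 by DESeq2 and 2 each with genes of a mean of at least 50 counts, with the replicate block and with only the groups compared, and leaving out 1 library gave 1 to 3. Sdhb passed without NHD13 replicate 1, without NHD13 replicate 2 or without NHD13/MSI2 replicate 4, with adjusted p-values of 0.00772, 0.00765 and 0.0053. For those libraries over NHD13, DESeq2 called 1 gene, Cox6a2, lower (adjusted p = 0.00465, up to 0.731 over the alternatives), where edgeR called 0. NHD13 over control went from 0 to 2 by DESeq2, Ndufa4 and Cox6a2. At an adjusted p of 0.05, edgeR called 2745 of all 13355 genes for the libraries labelled NHD13/MSI2 over control. Its joint test called 2472 of them at that threshold. Shares of all genes under DESeq2 and the other settings are not given here, so counts under them have no background beside them. The joint test went from 1 to 4 both at an adjusted p of 0.05 and by DESeq2, and from 0 to 2 when 1 library was left out, with 0 without control replicate 2 or 3 and 2 without NHD13 replicate 1 or NHD13/MSI2 replicate 4. With names as deposited the row called Ndufa4 is another gene, and its log2 fold change for NHD13/MSI2 over control was 0.038. Without TMM the log2 ratios of complex sums for NHD13/MSI2 over NHD13 were -0.22 for complex I, 0.066 for II and -0.10 for III, and over control -0.26, 0.057 and -0.042. Without the most abundant member of each complex they were 0.13 for II and -0.065 for III over NHD13, and 0.12 for II in NHD13 over control. Correlations between the deviations of same-numbered libraries ran from -0.11 to 0.20. The deviations of the 2 NHD13 libraries mirror each other, so these values cannot settle whether numbers mark pairs. The replicate block moved the count only as given. Of 2091 values of 37 named genes under alternatives 2049 kept their call, those without one moving by less than 1 SE, and 146 uncalled ones changed sign. With 2 NHD13 libraries, a count of 0 does not show that levels were equal. The causes were not tested.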

Other observations

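The genes around Sdhb and Cox7a2l were read in the same way as those around Ndufa4. Within 1 Mb of Sdhb, 28 other genes were tested, and 5 of them were higher and 0 lower in the libraries labelled NHD13/MSI2 over control by edgeR at an adjusted p of 0.01, beside 4.49% of all genes called higher. They included Padi2, Padi3 and Padi4, which code for enzymes that turn arginine into citrulline, with log2 fold changes of 4.92, 6.11 and 1.46. Within 1 Mb of Cox7a2l, 6 other genes were tested and 2 were higher, beside the same share of all genes, Thada at 1.18 and Haao at 1.26. These genes were named after their values were seen.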
